A study of Bos taurus with 20 samples.

Results

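The syndecan and glypican genes encode the core proteins of cell-surface heparan sulfate proteoglycans, and all 10 members of both families (SDC1 to SDC4 and GPC1 to GPC6) were looked up by symbol among the 33063 named genes of a bovine count table, where each was found. The libraries were 20 bulk RNA-seq libraries of clonal mesenchymal stem cell (MSC) populations from Bos taurus. Each clone was grown from a single sorted cell of an adipose tissue culture. It was classed as adipogenic (A, strong lipid staining after standard adipogenic differentiation) or non-adipogenic (N, no such staining), and undifferentiated cells were sequenced. The 10 A and 10 N clones came from 4 calves, with 1 clone of each class from animals 17 and 20 and 4 of each class from animals 22 and 23. The growth medium held fetal bovine serum and basic FGF (FGF2, itself a heparan sulfate-binding growth factor), and per the study's methods it was mixed with medium conditioned by the MSC culture of the same animal. Each clone is named here by its animal and clone number. A clone is a separate culture but not a separate animal, so the p-values given below measure the spread between clones.

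Syndecans are transmembrane proteins with a short cytoplasmic tail, and glypicans are held in the outer leaflet of the plasma membrane by a lipid (glycosylphosphatidylinositol) anchor. Both carry heparan sulfate, a long sulfated sugar chain that binds growth factors, lipoproteins, proteases and matrix proteins and presents them to their receptors. In adipose progenitors, FGF and Wnt signals, which act in part through heparan sulfate, are known to bear on proliferation and on entry into the adipocyte lineage. Transcript levels say how much messenger RNA for the core protein was present, not how much sugar chain the cells carried.

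Libraries held 14908802 to 43111345 counts on named genes in N clones and 14615493 to 29185355 in A clones, and levels are given as CPM, the count scaled to a common normalised library size. Of 6 MSC surface markers 0 were called different, and their summed level was 2723 to 5067 CPM in N clones and 3302 to 5414 CPM in A clones. Of the 6 blood cell and macrophage markers C1QA was at 0 counts in every clone, but CD68 was higher in A clones (log2 fold change 1.06, edgeR adjusted p = 0.0157), and CSF1R, too low for the filter, had 22 counts over the N and 176 over the A clones with no overlap between groups. Their summed level was low, at 0.648 to 10.4 CPM in N and 2.74 to 11.4 CPM in A clones. Of the 6 endothelial markers CLDN5 was at 0 counts in every clone and 0 of 3 tested were called (PECAM1 log2 fold change 2.49, edgeR adjusted p = 0.0675), with sums of 1.07 to 41.2 CPM in N and 5.11 to 23.7 CPM in A clones. Mesothelial and epithelial markers (1 of 7 tested lower in A, MSLN) summed to 9187 and 6502 CPM in N clones 22-5 and 22-9 but to at most 276 CPM in the other 8 N clones, and to between 8.63 and 1099 CPM in A clones. Of 6 proliferation markers, 5 were lower in A clones (summed 84.9 to 439.6 CPM in N and 12.9 to 256 CPM in A). Of 5 tested smooth muscle and pericyte markers, 2 were higher (MYH11 and NOTCH3; summed 126 to 6124 CPM in N and 766 to 8678 CPM in A), and of 4 tested adipocyte markers PLIN1 was higher (summed 4.56 to 122 CPM in N and 16.9 to 96.5 CPM in A). The part of these markers in the results on proteoglycans was not tested. In such bulk libraries a larger share of cells with a transcript and more of the transcript per cell cannot be told apart.

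Whether undifferentiated A clones differed from N clones in these core proteins was tested with edgeR's quasi-likelihood test across all genes, with the animal as a block and Benjamini-Hochberg adjustment. SDC1, SDC2, SDC3 and GPC1 were higher in A clones, each by at least 2-fold, and no member was lower. The test covered 7 of the 10 members, because GPC2, GPC3 and GPC5 were too low for the expression filter. Among all 12900 tested genes, 20.6% were called, 10.3% as higher and 10.3% as lower in A clones, and 5.76% were called with at least a 2-fold change. The median log2 fold change was 1.07 over the 7 tested members and -0.01 over all tested genes, and all 7 had a positive value. With counts summed per animal and class, which leaves 4 pairs, edgeR called 0 of 8 members tested and 0 of all genes. In that fit 5 members and 2243 of all genes passed an unadjusted p under 0.05.

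SDC1 (CD138), the syndecan best known from plasma cells, epithelia and the hepatic uptake of lipoproteins, was at 17.4 CPM in the lowest N clone, 74.9 CPM at the median and 132 CPM in the highest. In A clones the lowest, median and highest values were 189, 267 and 443 CPM. Every A clone lay above every N clone, a separation that 0.318% of tested genes had and no other syndecan or glypican did. The means were 75.2 ± 36.7 CPM (SD, n = 10) in N and 279 ± 76.6 CPM (SD, n = 10) in A clones, with 1.89 as the log2 fold change (SE 0.275; edgeR adjusted p = 0.000717), which was the 45th smallest adjusted p among the tested genes. The 4 N clones of animal 23 ran from 17.4 to 120.0 CPM (SD 52.3), while those of animal 22 lay between 56.2 and 78.6 CPM (SD 10.5). N clones 22-5 and 22-9, with the high mesothelial marker sums, were at 78.6 and 56.2 CPM of SDC1, inside the range of the other N clones.

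SDC2, the syndecan typical of mesenchymal and fibroblastic cells, had the largest log2 fold change of the members. In N clones its lowest, median and highest values were 1.90, 9.08 and 52.7 CPM, and in A clones 11.1, 74.9 and 105 CPM. N clone 22-18 alone stood above 17.5 CPM in its group, and 3 A clones (17-57, 20-106 and 23-108, at 11.1, 22.4 and 27.0 CPM) lay below it, so the groups overlapped. The means of 13.7 ± 14.4 CPM (SD, n = 10) in N and 64.7 ± 32.8 CPM (SD, n = 10) in A clones corresponded to a log2 difference of 2.27 (SE 0.417; edgeR adjusted p = 0.00244). The difference was present in animals 20, 22 and 23, at 3.49, 2.54 and 2.65 on the log2 CPM scale, but was only 0.11 between the single pair of animal 17 (10.3 CPM in N and 11.1 CPM in A). Without the clones of animal 23, when only 32 of all genes were called, the log2 fold change was 1.95 (edgeR adjusted p = 0.128).

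SDC3, a syndecan first described in nervous tissue and linked to the control of feeding, showed a smaller difference. Its lowest, median and highest values were 9.20, 16.7 and 56.8 CPM in N clones and 16.7, 45.2 and 56.2 CPM in A clones. N clone 23-23, at 56.8 CPM, was above every A clone, and A clone 17-57, at 16.7 CPM, was the lowest A clone, the next being at 35.1 CPM. The log2 fold change was 1.0 (SE 0.311; edgeR adjusted p = 0.0317), from 21.2 ± 14.5 CPM (SD, n = 10) in N and 43.5 ± 11.9 CPM (SD, n = 10) in A clones. This call depended on single clones. Leaving out N clone 20-15, 22-9, 23-10 or 23-74, or A clone 20-106 or 22-27, gave edgeR adjusted p values from 0.0502 to 0.0624 with log2 fold changes from 0.90 to 0.98, and leaving out N clones 22-5 and 22-9 together gave 0.78 (edgeR adjusted p = 0.0905). Leaving out clone 20-15 or clone 20-106 takes all of animal 20 out of the blocked comparison, so both are the same omission. Without the clones of animal 20, 22 or 23 the log2 fold changes were 0.90, 0.80 and 1.18 (edgeR adjusted p = 0.0625, 0.227 and 0.128).

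SDC4, the broadly expressed syndecan of focal adhesions, was not called. It was the most even syndecan in N clones, with 73.9, 96.9 and 123 CPM as the lowest, median and highest values, against 69.9, 123 and 226 CPM in A clones. A clones spanned a wider range than N clones in both directions, with 5 of 10 above every N clone and 1, clone 22-121, below every N clone. The log2 fold change was 0.49 (SE 0.180; edgeR adjusted p = 0.0601), from 96.3 ± 17.0 CPM (SD, n = 10) in N and 137 ± 55.4 CPM (SD, n = 10) in A clones, and the difference was positive in each of the 4 animals. The result sat close to the threshold, since without A clone 22-121, 23-62 or 23-108 the edgeR adjusted p was 0.0123, 0.0458 and 0.0475 in turn, and DESeq2 called SDC4 on all clones (adjusted p = 0.0324).

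**Figure D1:**
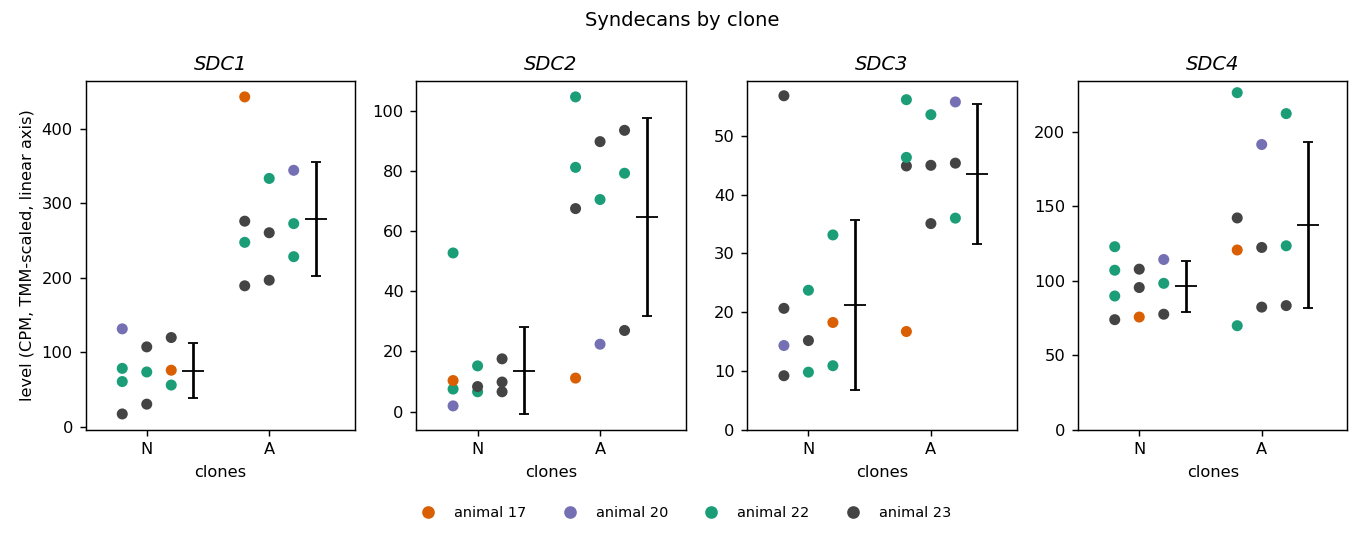
Level of SDC1, SDC2, SDC3 and SDC4 in each N and A clone, in CPM on a linear axis, with points coloured by animal and a black bar for the mean ± SD of the 10 clones of each group. The A clones of SDC1 (189 to 443 CPM) lie above all its N clones (17.4 to 132 CPM), whereas the groups of SDC2, SDC3 and SDC4 overlap.

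Because the members moved by different amounts, the make-up of the syndecan transcripts of a clone also differed, which is given here as a description. The 4 syndecans together reached 206 ± 49.4 CPM (SD, n = 10) in N and 525 ± 96.0 CPM (SD, n = 10) in A clones, and the lowest A clone (335 CPM) was above the highest N clone (266 CPM). SDC1 is part of this sum and separated the groups by itself (means of 75.2 and 279 CPM), whereas SDC2, SDC3 and SDC4 each overlapped. There were 0.793 ± 0.393 SDC1 counts per SDC4 count in N clones (range 0.182 to 1.45) and 2.30 ± 0.936 in A clones (range 1.08 to 3.67). In 8 A clones this ratio was above that of every N clone. SDC2 counts per SDC4 count were 0.145 ± 0.146 in N and 0.537 ± 0.347 in A clones. These are ratios of counts, not corrected for transcript length, so they compare clones and not the abundance of one core protein with another.

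Among the glypicans, GPC1 was the only member called. GPC1 is widely expressed and acts as a co-receptor for FGFs. Its lowest, median and highest values were 72.9, 511 and 1207 CPM in N clones and 694, 947 and 1484 CPM in A clones. The A clones thus formed a narrow band of 2.14-fold, whereas N clones spread over 16.6-fold, with 8 of them below every A clone and the other two inside the A range. The low end of the N range was clone 20-15 alone, the next N clone being at 266 CPM. The means were 527 ± 327 CPM (SD, n = 10) in N and 992 ± 257 CPM (SD, n = 10) in A clones, with a log2 fold change of 1.07 (SE 0.306; edgeR adjusted p = 0.0227). The difference in log2 CPM was 1.52, 3.36, 1.19 and 0.55 in animals 17, 20, 22 and 23. The call was lost without the animal block (log2 fold change 0.91, edgeR adjusted p = 0.0572), without N clones 22-5 and 22-9 (0.89, edgeR adjusted p = 0.0681) and without animals 17 and 20 (0.77, edgeR adjusted p = 0.0656). Without animal 22 or 23 it was lost at log2 fold changes of 1.08 and 1.48 (edgeR adjusted p = 0.125 and 0.112).

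GPC4, a glypican that adipocytes can release and that has been tied to insulin signalling, was not called (log2 fold change 0.57, SE 0.356; edgeR adjusted p = 0.258). Its lowest, median and highest values were 22.7, 61.2 and 144 CPM in N clones and 20.9, 94.5 and 200.1 CPM in A clones, and the groups overlapped almost throughout. The animals differed in sign, with -1.65 on the log2 CPM scale between the pair of animal 17 (65.6 CPM in N, 20.9 CPM in A), 3.13 between the pair of animal 20 (22.7 CPM in N, 200.1 CPM in A), and 0.50 and 0.62 in animals 22 and 23. A pair of single clones has no replicate of its own, and a test over all 4 animals is given below.

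GPC6, a glypican of the developing skeleton, was low and was not called either (log2 fold change 1.66, SE 0.701; edgeR adjusted p = 0.0992). Its lowest, median and highest values were 0.394, 2.35 and 11.5 CPM in N clones and 0, 11.5 and 17.4 CPM in A clones. Animal 17 ran against the other animals, since A clone 17-57 had 0 counts and N clone 17-23 had 212 counts (11.5 CPM), the highest level of any N clone. With 0 counts taken as at most 3 counts (0.204 CPM in that library), clone 17-57 was at least 56.5-fold lower than clone 17-23, counting error only. Differences in log2 CPM were 2.66, 2.54 and 1.95 in animals 20, 22 and 23. Without animal 17 the log2 fold change was 2.00 (SE 0.457; edgeR adjusted p = 0.00965). Leaving out only clone 17-23 or only clone 17-57 takes the whole animal out of the blocked comparison and gave edgeR adjusted p values of 0.00953 and 0.00963. DESeq2 called GPC6 with all clones kept (adjusted p = 0.0250).

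**Figure D2:**
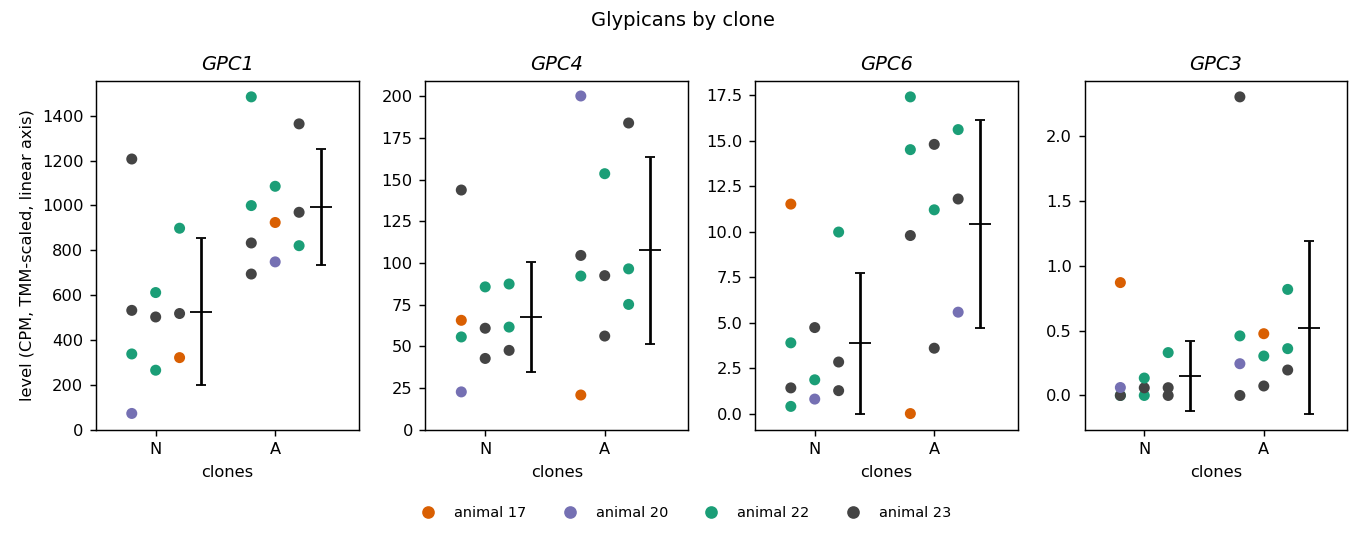
Level of GPC1, GPC4, GPC6 and GPC3 in each N and A clone, in CPM on a linear axis, with points coloured by animal and a black bar for the mean ± SD of the 10 clones of each group. For GPC1 the A clones (694 to 1484 CPM) form a narrower band than the N clones (72.9 to 1207 CPM, the lowest being clone 20-15 and the next at 266 CPM), and for GPC6 A clone 17-57 is at 0.

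The other glypicans were close to the limit of the libraries. GPC2, known mainly from developing neurons, had 39 counts over all N clones and 31 over all A clones, and was seen in 8 N and 9 A clones. GPC3, a glypican that binds hedgehog proteins and restrains growth, had 35 counts over the N clones, 16 of them in clone 17-23, and 84 over the A clones. Over the summed libraries this was 0.174 CPM in N (exact Poisson 95% interval 0.121 to 0.242) and 0.458 CPM in A clones (0.365 to 0.567), intervals that cover counting error only and not the spread between clones. When all genes with a count were kept, GPC3 had a log2 fold change of 2.21 (SE 0.840; edgeR adjusted p = 0.0934) and GPC2 one of 0.05 (edgeR adjusted p = 0.974). In a later annotation of the bovine genome the span of GPC3 also holds 5 other loci, at most 0.776 CPM on average in these libraries, and how shared reads were counted is not stated, so its few counts are uncertain. The span of GPC6 holds 2 loci of a multicopy tRNA name, listed at up to 1.44 CPM on average, so its low values are uncertain too. GPC5 had 0 counts in every N clone, which allows a level of up to 0.0183 CPM over the summed N libraries (upper end of the exact Poisson 95% interval). It had 2 counts over the A clones, so no fold is given.

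The glypicans together reached 598 ± 339 CPM (SD, n = 10) in N and 1111 ± 258 CPM (SD, n = 10) in A clones, with 2 A clones above every N clone. Most of this sum was GPC1 counts.

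**Figure D3:**
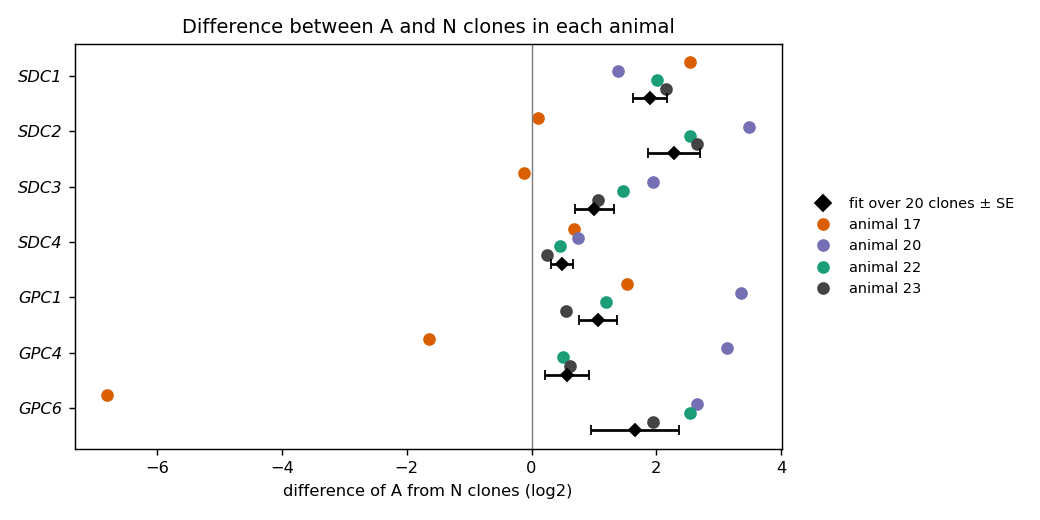
Difference between A and N clones for each of the 7 tested members on the log2 scale, with circles for the difference of mean log2 CPM within each animal and a diamond with its bar for the edgeR estimate ± SE. SDC1, SDC2, SDC4 and GPC1 are above 0 in all 4 animals, while SDC3 and GPC4 (-0.13 and -1.65) and GPC6 are below 0 in animal 17, where the place of GPC6 depends on the prior count because clone 17-57 had 0 counts.

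Whether the difference depended on the animal was tested first between animals 22 and 23, which had 4 clones of each class. The interaction term of edgeR was past the threshold for 0 of 7 members (0 also at an unadjusted p under 0.05, and 0 with DESeq2), and for 4 of 12915 tested genes (0.031%). Estimates, animal 23 minus animal 22, were -0.26 (SE 0.628) for SDC1, 0.69 (SE 0.815) for SDC2 and -0.57 (SE 0.548) for GPC1. With 4 clones per class these standard errors were wide, and an interaction the size of its SE could not be told from 0. A test over all 4 animals, added after the data were seen and with its spread taken from animals 22 and 23, called 0 of 7 members and 0.814% of all tested genes. In it GPC6, GPC4 and GPC1 had unadjusted p values of 0.00419, 0.0120 and 0.0429 (edgeR adjusted p = 0.113, 0.165 and 0.266). An unadjusted p under 0.05 was reached by 2302 of the 12900 tested genes. Levels among the animals, tested with the animal term of edgeR, differed for 0 of 7 members, against 4.6% of all tested genes. SDC2 came nearest, with an unadjusted p of 0.0205 (edgeR adjusted p = 0.149), and was called by the likelihood ratio test of DESeq2. Over all genes 2835 had an unadjusted p under 0.05 for the animal term of edgeR, and DESeq2 called 1710 against 593.

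The clones of a class also differed from each other, to a degree that depended on the member. On the log2 CPM scale GPC1 had an SD of 1.11 in N and 0.354 in A clones, and SDC1 one of 0.902 in N and 0.376 in A clones. The N value of GPC1 includes clone 20-15, which at 72.9 CPM lay far below the next N clone (266 CPM). For SDC4 the order was the other way round, at 0.259 in N and 0.589 in A clones. SDC2 had similar SDs of 1.21 and 1.09. These spreads were not compared by a test.

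After the mean of each animal and class was taken out, the members varied together to unequal degrees. Over the 21 pairs of the 7 tested members, Pearson's r of log2 CPM had a median of 0.173 and ran from -0.298 to 0.867, with 5 pairs over 0.5 and 5 below 0. The 6 pairs among SDC2, SDC3, GPC1 and GPC6 lay between 0.478 and 0.867, and SDC1 and SDC3 had 0.617. SDC4 and GPC4 were at 0.225 or less with every other member. The highest was between SDC3 and GPC1 (Spearman's rho 0.888). Over the 8 N clones of animals 22 and 23 their r was 0.919, over the 8 A clones 0.726, and without clones 23-23 and 23-22, the ones farthest from the median of SDC3, it was 0.903. The points share libraries and normalisation, the pair was chosen as the highest of all, and only 16 clones could vary, since animals 17 and 20 had a single clone in each class. The value is a description, and no p is given.

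**Figure D4:**
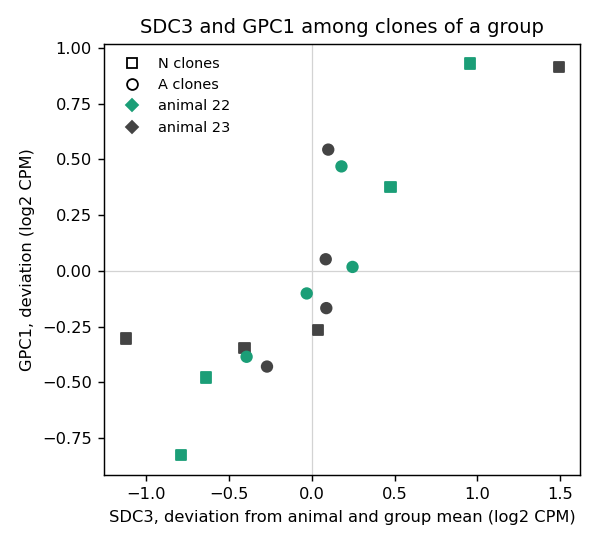
GPC1 against SDC3 in the 16 clones of animals 22 and 23, each as log2 CPM minus the mean of its animal and class, with N and A clones marked apart. Clones with more SDC3 than the mean of their animal and class also had more GPC1 (Pearson's r 0.867).

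The same residual levels were used to find, among all tested genes, those most like each member. GPC1 was most like DACH1 (r = 0.96), followed by CASC4 and RAB14 (both r = 0.93), and SDC4 most like RBM12B (r = 0.94), then MAFF and MAP3K8 (both r = 0.93). For SDC2 the leading genes were GRIA1 (r = 0.93), SMO and GEM (both r = 0.89), and for GPC6 they were TTC28 (r = 0.93), TMX3 and NID1 (both r = 0.92). SDC1 was led by GLYCTK and DBNDD1 (both r = 0.91) and LOC107132921 (r = 0.90), SDC3 by SMOC1 (r = 0.89), OBSL1 and ISG12(B) (both r = 0.88), and GPC4 by RDH13 and LYN (both r = 0.87) and CCT6A (r = 0.86). No gene was named for more than a single member. Each leads a search over all 12900 tested genes in the same 16 clones, so the values describe these libraries only.

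A core protein becomes a heparan sulfate proteoglycan only after the chain has been started on a linker sugar, extended by the exostosins, and modified by sulfotransferases. The surroundings of the core proteins were therefore described with 8 lists holding 120 genes, called pathway genes here, of which 94 could be tested. Besides heparan sulfate synthesis the lists cover chondroitin and dermatan chains, other carriers, shedding, syndecan partners, and ligands and receptors. In edgeR 20 of the 94 tested list genes (21.3%, against 20.6% of all tested genes) were called, all 20 higher in A clones and 0 lower, with a median log2 fold change of 0.26. The share called in either direction was near that of all genes, whereas 10.3% of all genes were called higher and 10.3% lower. When all genes with a count were kept, edgeR called 23 of 117 list genes, all 23 higher, and 2755 of all genes. CHPF, GLCE and FURIN were then not called. Among those added, chosen here after their values were seen, RSPO3, CHST9 and SPOCK1 had 1, 3 and 2 counts over the N clones. Over the A clones they had 511, 1787 and 359 counts.

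Of the 11 tested genes of linkage and chain assembly, 2 were higher, with a median log2 fold change of 0.13 over the list. B4GALT7, which adds a galactose of the linker, was at 14.7 ± 3.33 CPM in N and 21.3 ± 3.59 CPM in A clones (SD, n = 10; log2 fold change 0.54, SE 0.123, edgeR adjusted p = 0.00725). PXYLP1, a phosphatase of the linker xylose, was at 11.9 ± 7.45 and 29.5 ± 15.2 CPM (log2 fold change 1.31, SE 0.305, edgeR adjusted p = 0.00854). The exostosins that polymerise the chain were not called, with log2 fold changes of 0.45 for EXT1 (edgeR adjusted p = 0.182) and -0.02 for EXT2 (edgeR adjusted p = 0.884).

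Of the 11 tested genes of sulfation and chain editing, 6 were higher, with a median log2 fold change of 0.65. NDST1, which starts sulfation by replacing acetyl with sulfate groups, was at 101 ± 27.0 CPM in N and 169 ± 53.9 CPM in A clones (SD, n = 10; log2 fold change 0.75, SE 0.131, edgeR adjusted p = 0.0018). The 3-O-sulfotransferases HS3ST6 and HS3ST2 had log2 fold changes of 1.82 (edgeR adjusted p = 0.00313) and 1.5 (edgeR adjusted p = 0.00478). HS3ST2 went from 31.1 ± 18.3 to 92.0 ± 49.9 CPM, while HS3ST6 was near the floor of the libraries, at 0.351 ± 0.236 CPM in N and 1.22 ± 0.405 CPM in A clones. HS3ST6 was the only tested list gene whose groups did not overlap, but barely, with 0.6097 CPM in the highest N and 0.6115 CPM in the lowest A clone (10 counts). It may have passed the filter on low counts only through its A clones, so neither this separation nor its adjusted p is support for a difference. HS3ST6 is nonetheless counted among the 6 genes of this list and the 20 of all lists. HS2ST1, the 2-O-sulfotransferase, was also higher (log2 fold change 0.53, SE 0.130, edgeR adjusted p = 0.0107). The 2 called genes not yet named were HS3ST4 and GLCE, chosen here after their values were seen, and leaving out single clones ended the call of HS3ST4 in 2 and that of GLCE in 13 of 20 fits (edgeR adjusted p up to 0.0543 and 0.0914). Both of these HS3ST4 fits left out a clone of animal 20, which takes that animal out of the blocked comparison. The extracellular 6-O-endosulfatases SULF1 and SULF2, which trim finished chains, were not called, with log2 fold changes of 0.65 (edgeR adjusted p = 0.0795) and 0.58 (edgeR adjusted p = 0.249). HS6ST1 and NDST2, also named after their values were seen, went the other way. Their log2 fold changes were -0.65 (edgeR adjusted p = 0.0653) and -0.04 (edgeR adjusted p = 0.763), and DESeq2 called HS6ST1 as lower. Heparanase (HPSE) was too low to test, at 1.61 ± 4.97 CPM in N and 0.660 ± 1.57 CPM in A clones.

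Of the 8 genes that supply sugar and sulfate donors, 2 were higher, namely SLC35B2, the Golgi carrier of activated sulfate (log2 fold change 0.35, edgeR adjusted p = 0.00538), and PAPSS2, which makes that donor (28.9 to 66.0 CPM, edgeR adjusted p = 0.0176). Chondroitin and dermatan sulfate chains start from the same linker, and of 13 tested genes for them 4 were higher. Those with the smallest adjusted p were CHSY1 (89.8 to 152 CPM, log2 fold change 0.78, edgeR adjusted p = 0.00433), CHSY3 (4.05 to 14.1 CPM, log2 fold change 2.18, edgeR adjusted p = 0.0121) and CHPF2 (log2 fold change 0.38, edgeR adjusted p = 0.0192), which all serve chain polymerisation. Of 7 other tested carriers of heparan sulfate only COL18A1, the core of the basement membrane proteoglycan collagen XVIII, was called. It went from 9.32 ± 13.5 CPM in N to 172 ± 159 CPM in A clones (SD, n = 10; log2 fold change 4.05, SE 0.847, edgeR adjusted p = 0.00492), with 9 of 10 A clones above every N clone.

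**Figure D5:**
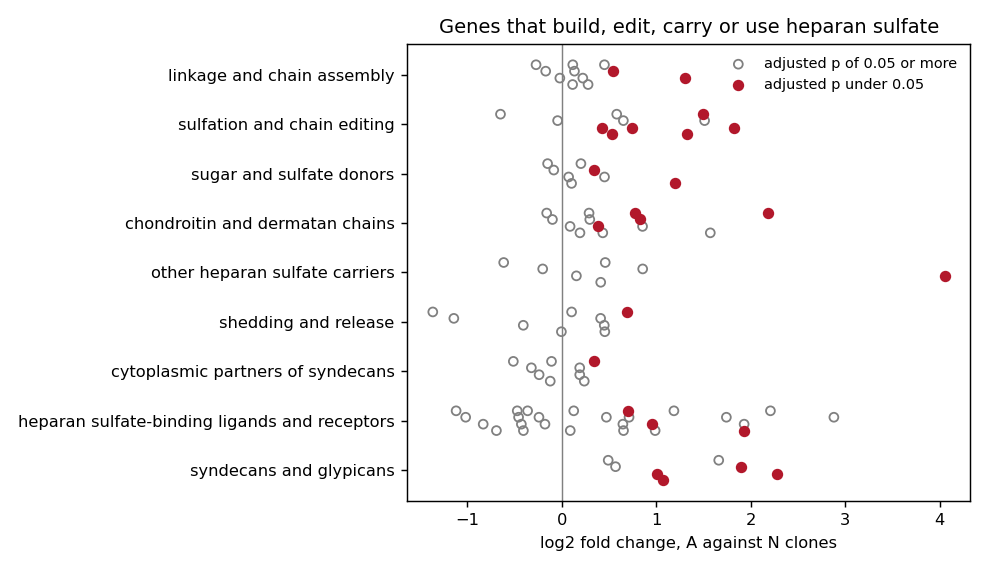
Log2 fold change of A against N clones for the tested genes of each of the 8 lists and, in the bottom row, for the 7 tested syndecans and glypicans, with filled points for called genes (edgeR adjusted p under 0.05) and open points for the others. All 20 called list genes and all 4 called members lie above 0, 6 of the list genes in the list on sulfation and chain editing. These 6 include HS3ST6, which may have passed the filter on low counts only through its A clones.

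Of 9 tested genes for shedding and release only FURIN, the protease that activates shedding enzymes, was higher (log2 fold change 0.69, SE 0.235, edgeR adjusted p = 0.0467). This call was lost in 13 of 20 fits that each left out a single clone (edgeR adjusted p up to 0.101). ADAM17, a sheddase of syndecans, was at 81.5 CPM in N and 81.0 CPM in A clones (edgeR adjusted p = 0.982), and NOTUM, which can release glypicans, was too low to test at 1.01 and 0.477 CPM. Of 9 cytoplasmic partners of syndecans only the actin-binding protein CTTN was higher (log2 fold change 0.34, edgeR adjusted p = 0.0156), whereas SDCBP (syntenin), which binds the syndecan tail, was at 246 CPM in N and 214 CPM in A clones (edgeR adjusted p = 0.204). Of 26 tested ligands and receptors that bind heparan sulfate, 3 were higher. APOE, the lipoprotein ligand, went from 25.8 ± 14.7 to 103 ± 41.3 CPM (SD, n = 10; log2 fold change 1.93, SE 0.408, edgeR adjusted p = 0.00509). FGFR1 had a log2 fold change of 0.95 (SE 0.214; edgeR adjusted p = 0.00686) and VEGFA one of 0.71 (SE 0.198; edgeR adjusted p = 0.0202), while FGF2 was at 107 CPM in N and 73.9 CPM in A clones (log2 fold change -0.43, edgeR adjusted p = 0.309).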

How the data were processed

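Per the labels and the study's methods, RNA of each clone was made into libraries with a directional kit and sequenced as read pairs on a NovaSeq. Per the submitters' processing notes and the methods, the authors used bcl2fastq 2.20, Trimmomatic 0.36, STAR 2.5.2b on the ARS-UCD1.2 genome and featureCounts of Subread 1.5.2, and deposited raw counts per gene and clone of uniquely mapped reads within exons. The strand setting of the counting is not given in the sources used here, so counts of overlapping genes are uncertain. The table held 1 row without a name (0.113% to 0.333% of counts), which entered neither library sizes nor tests. Columns from samples outside the series numbered 0.

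Groups, animals and clone numbers came from the labels. The counts were tested with edgeR 4.0.16 in R 4.3.3 (TMM factors, the default filter on low counts by class, a robust quasi-likelihood fit with the animal as a block, Benjamini-Hochberg adjustment over all 12900 genes kept, threshold 0.05). Clones of the same animal deviated together (correlation of N and A deviations 0.253, 0.193, 0.241 and 0.440 for animals 17, 20, 22 and 23), and the labels give the animal. CPM used TMM library sizes, and log2 CPM a prior count of 2. The interaction was fitted on animals 22 and 23. Alternatives were other size factors, filters, DESeq2 1.42.0, limma 3.58.1 with voom, no block, counts summed per animal, and leaving out clones or animals. The main fit, the fits without block, with voom and on summed counts, DESeq2 with the block, the interaction of animals 22 and 23 and the animal term were tried on simulated data. These data had the same dispersion for every gene and, for the class, no animal effect, so they do not show performance at the spread seen here. The other alternatives were not simulated. Named were all 10 members, up to 3 called genes per list and direction, and a fixed set of pathway genes. The members and lists were chosen with earlier results of these data known. Gene neighbours came from a RefSeq table of another build, so no coordinates are given. The depth behind each member sets its precision, and intervals and limits cover counting error only.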

Additional observations from a re-analysis of the deposited data

Results flagged for a closer look

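In 2 of the 20 groups of 10 clones examined (10 members in each class), a single clone stood apart by Dixon's criterion on log2 CPM. The criterion divides the gap to the nearest clone by the whole range of the group. Both flags fell on A clone 17-57. Its SDC3 level of 4.07 in log2 CPM (16.7 CPM) had a gap ratio of 0.611, with the next A clone at 5.14 (35.1 CPM). Its GPC6 level of -3.26 in log2 CPM (0 CPM) had a gap ratio of 0.697, with the next A clone at 1.89 (3.59 CPM). These ratios hold for log2 CPM and not for the CPM values. The prior count sets the place of 0 counts on the log2 scale, so the GPC6 flag depends on it. For normally distributed values chance alone flags about 1 in 20 groups. That rate does not hold for the groups of GPC2, GPC3 and GPC5, which had 0 or few counts per clone. GPC5 in N clones, at 0 throughout, could not be flagged. The library of this clone also had the highest SDC1 level of all clones (443 CPM) and the lowest SDC2 and GPC4 levels of the A clones (11.1 and 20.9 CPM).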

How the results depend on the processing

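Of the 7 tested members none changed the sign of its log2 fold change under any alternative. The number called, 4, fell to 0 by edgeR when counts were summed per animal and class, where 0 of all genes were called. In that fit 5 of 8 tested members passed an unadjusted p under 0.05, as did 2243 of all genes. The number fell to 2 without animal 22 (1471 of all genes called, against 2658) and to 1 without animal 23 (SDC1, 32 of all genes). It fell to 2 without N clones 22-5 and 22-9 (SDC1 and SDC2, 1859 of all genes), an omission chosen after seeing the data. Leaving out single clones gave 3 to 5 members (1982 to 3133 of all genes), and DESeq2 gave 6 (SDC4 and GPC6 added, 3528 of all genes). The log2 fold change of SDC1 stayed between 1.78 and 2.07 and lost its call only with summed counts (edgeR adjusted p = 0.225). Without the animal block 3 members were called, since GPC1 was lost. The 20 pathway genes became 33 with DESeq2 (30 of them higher), which called 3528 of all genes against 2658. With the losses over all genes given above, they became 12 without animal 22 and 0 by edgeR without animal 23 or with summed counts. At an unadjusted p under 0.05, 24 of 97 tested pathway genes passed without animal 23 (2731 of all genes). With summed counts 21 of 101 did (2243 of all genes). Leaving out single clones gave 17 to 28 called pathway genes (1982 to 3133 of all genes). CHPF, GLCE and FURIN lost their calls in 12 to 13 of those 20 fits and HS3ST4 in 2, while the other 16 called genes kept theirs. Leaving out either clone of animal 17, or either of animal 20, takes the whole animal out of the blocked comparison, so those fits are not separate omissions. The interaction gave 0 members in all 22 alternatives. The animal term gave 1 member (SDC2) by DESeq2's likelihood ratio test and 0 to 1 without single clones (GPC6 without N clone 17-23). Why these values moved was not tested, nor was the part of the smaller number of clones. Depth limited GPC2, GPC3 and GPC5 and, in single clones, GPC6, and pairs of single clones in animals 17 and 20 give no replicate.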
